A study of Homo sapiens with 12 samples.

Results

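The inhibitor of DNA binding (ID) genes ID1, ID2, ID3 and ID4, the E protein genes TCF3, TCF4 and TCF12, and LYL1, a tissue-restricted partner of E proteins, were followed in K562 cells treated with nilotinib, imatinib or DMSO. All probe sets whose array annotation names one of these 8 genes were taken, which gave 31 of the 22277 probe sets on the array and 8 of the 11963 genes that a probe set names alone. Of the 31, 30 name 1 of the genes alone and 1 names ID2 together with ID2B. K562 is an established human line from chronic myeloid leukaemia in which the BCR-ABL1 fusion kinase is active, and every group was made of these cells. The nilotinib (AMN107) group had 4 arrays of cells given 0.05 µM, the imatinib (STI571) group had 4 arrays of cells given 0.5 µM, and the DMSO group had 4 arrays of cells given the solvent, all for 24 h. Both drugs inhibit the ABL kinase, and the labels describe each dose as the IC50 of its drug, so the drugs were compared at unequal molar doses. Nothing in the labels says that the arrays of a group stem from separate cultures, and the p-values rest on the spread of these arrays alone, which could be of technical origin. All samples come from 1 cell line.

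E proteins are basic helix-loop-helix transcription factors that bind the E-box CANNTG as pairs, either with each other or with tissue-restricted partners such as TAL1 and LYL1. ID proteins carry the helix-loop-helix but lack the basic stretch that touches DNA, so an E protein bound by an ID protein does not bind the E-box. In blood cells the balance between ID proteins and E proteins is known for its part in the choice between lineages, and in erythroid cells E proteins sit with TAL1, LMO2, LDB1 and GATA1 in one DNA-bound complex. TCF3 encodes the E12 and E47 proteins, TCF4 encodes E2-2 and TCF12 encodes HEB. TCF4 and TCF3 as named here are not the WNT pathway factors TCF7L2 and TCF7L1, which have shared those symbols as aliases.

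The sequences just upstream of ID1 and ID2 are shown because these neighbours in function differed from DMSO in opposite directions in the drug-treated cells. Each is the 250 bases before the gene's start from RefSeq on GRCh38.p14, written 5′ to 3′ on the plus strand, with every match to the E-box CANNTG in capitals. The ID1 window is chr20:31605039-31605288 and the ID2 window is chr2:8681806-8682055.
ID1: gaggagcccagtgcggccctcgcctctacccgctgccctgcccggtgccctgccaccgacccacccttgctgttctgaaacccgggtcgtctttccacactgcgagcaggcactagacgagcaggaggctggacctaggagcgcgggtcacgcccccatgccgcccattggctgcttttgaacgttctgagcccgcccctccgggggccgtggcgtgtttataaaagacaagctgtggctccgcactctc
ID2: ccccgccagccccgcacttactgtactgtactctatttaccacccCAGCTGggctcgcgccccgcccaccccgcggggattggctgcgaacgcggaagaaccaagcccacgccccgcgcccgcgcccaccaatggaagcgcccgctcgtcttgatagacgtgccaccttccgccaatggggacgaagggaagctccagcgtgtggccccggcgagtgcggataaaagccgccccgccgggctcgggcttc
The ID1 window held no E-box, and the ID2 window held 1, which starts 205 bases upstream of the gene's start. An E-box was found in 61.8% of the 35116 windows of this length in the same source. The ID2 window also held 1 match to GATAA, 31 bases upstream, a motif found in 20.4% of windows, and the ID1 window held none. CCAAT was matched once in the ID1 window and 3 times in the ID2 window, against 32% of windows with a match. TATAAA was matched 2 times in the ID1 window, by overlapping letters on opposite strands 33 and 31 bases upstream, and not in the ID2 window, against 10.7% of all windows. Neither window held the MYC-type E-box CACGTG, the EGR1 motif GCGGGGGCG, the FOXO motif TGTTTAC, the cyclic AMP response half-site TGACGT or the SMAD1 and SMAD5 motif GGCGCC, which were in 6.34%, 4.72%, 2.98%, 7.1% and 16.4% of windows. Motifs were searched on both strands, and these matches describe letters and were not tested for binding.

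Signals are MAS5 values on a linear scale, and fold changes were taken on log2(signal + 16), a scale on which the changes of dim probe sets are understated. A probe set was tested where its mean log2 value reached the 40th percentile of all probe sets, which corresponds to a signal of 80.6. That left 11696 probe sets of 8021 genes, among them 21 of the 30 that name 1 member. The 9 below the filter were the only probe set of ID3, all 3 of ID4, 4 of the 13 of TCF3 and 1 of the 2 of TCF12, and all probe sets of ID1, ID2, TCF4 and LYL1 passed. A call means an adjusted p under 0.05 in limma after Benjamini-Hochberg adjustment over all probe sets tested.

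Much of the array differed between drug and DMSO. Nilotinib against DMSO called 54.9% of the probe sets tested, imatinib against DMSO 35.6% and nilotinib against imatinib 11.4%. The median log2 fold change over all probe sets tested was 0.15, 0.09 and 0.06 in those comparisons, and the median SE was 0.158. The median signal of an array was 166 to 194 with nilotinib, 135 to 155 with imatinib and 117 to 121 with DMSO. The median of the 27 bacterial control probe sets, which match no human transcript, was 12.8 to 24.7, 9.27 to 18.9 and 5.60 to 8.79 in the same groups. The ratio of the 3′ to the 5′ actin probe set, a sign of RNA integrity, lay above 3.5 on 2 of the nilotinib arrays and 2 of the imatinib arrays and on 0 of the DMSO arrays. The part of these array differences in the results was not tested, other than by the alternatives named beside them. Centring each array on its median moved the median log2 fold change over all probe sets by −0.52 for nilotinib and −0.23 for imatinib against DMSO, and by −0.30 between the drugs. Under it nilotinib against DMSO called 1130 probe sets higher and 5519 lower, against 3877 and 2546 as deposited, and quantile normalization gave 2602 and 2937.

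Of the 21 member probe sets tested, nilotinib against DMSO called 12 higher and 1 lower, and imatinib against DMSO also called 12 higher and 1 lower. Over all probe sets, 33.1% were called higher and 21.8% lower with nilotinib, and 20% higher and 15.6% lower with imatinib. The arrays of drug and DMSO did not overlap for 13 of the 21 with either drug, against 48% and 36.6% of all probe sets. For all probe sets, the nilotinib arrays lay wholly above DMSO for 28.5% and wholly below for 19.5%, and the imatinib arrays for 20.1% and 16.4%. The median log2 fold change of the 21 was 1.05 with nilotinib and 0.40 with imatinib. One of the 12 higher with each drug, a second probe set of ID2, passed the filter only through its drug arrays. The counts lean on TCF4 and TCF3, which hold 7 and 9 of the 21. With 1 probe set per gene, ID1, ID2, TCF3, TCF4, TCF12 and LYL1 were tested. Of these genes 3 were called higher and 1 lower with each drug. In that fit 2781 of all 8021 genes were called higher and 1885 lower with nilotinib, and 1767 and 1390 with imatinib. In the fit of all probe sets, the brightest probe sets of TCF3, TCF12 and LYL1 were not called with nilotinib (adjusted p = 0.0533, 0.165 and 0.0700). The nilotinib count of 3 genes higher thus hung on which probe sets were tested. The comparisons with DMSO share the DMSO arrays, so their calls are not independent of each other.

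ID1 was lower and ID2 higher with both drugs. ID1, which in many cell types is an early target of BMP signalling and is associated with proliferating, undifferentiated cells, had signals of 129, 224, 134 and 165 with nilotinib and 119.7, 165, 164 and 159 with imatinib, against 429.5, 340.3, 445 and 431 with DMSO. Every drug array lay below every DMSO array, and the drug groups overlapped each other. The means were 163 ± 44.0 with nilotinib and 152 ± 21.7 with imatinib, against 411 ± 47.9 with DMSO (SD, n = 4 each). On the log2 scale ID1 differed from DMSO by −1.28 ± 0.20 (SE) with nilotinib, with an adjusted p of 2.98e-05, and by −1.35 ± 0.20 with imatinib, with an adjusted p of 2.70e-05. The mean signal with DMSO was 2.53 times that with nilotinib and 2.71 times that with imatinib. Between the drugs ID1 differed by 0.07, with a 95% interval of −0.34 to 0.48.

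ID2, which is found in many differentiating blood cells and is required for natural killer cells, is read by 2 probe sets that name it alone. The brighter of them, 201565_s_at, gave 568, 883, 760.4 and 822 with nilotinib and 623, 534, 519.9 and 473 with imatinib, against 97.1, 94.5, 91.7 and 142 with DMSO. All drug arrays lay above all DMSO arrays, and the lowest nilotinib array fell inside the imatinib range. Its mean was 758 ± 137 with nilotinib and 537 ± 62.4 with imatinib, against 106 ± 23.7 with DMSO (SD, n = 4 each). These are 7.14 and 5.06 times the DMSO mean. The log2 fold change was 2.66 ± 0.17 (adjusted p = 2.55e-10) with nilotinib and 2.19 ± 0.17 (adjusted p = 7.04e-09) with imatinib. Between the drugs the difference was 0.47, with a 95% interval of 0.12 to 0.82 and an adjusted p of 0.0717. Without nilotinib replicate 1 that difference was called, at 0.60 (adjusted p = 0.0292).

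The second ID2 probe set, 201566_x_at, whose suffix marks probes that can also match related transcripts, gave 202, 391, 322 and 175 with nilotinib and 165, 179.6, 183 and 190.3 with imatinib, against 50.0, 21.2, 24.3 and 27.7 with DMSO. Its DMSO mean of 30.8 lies below the filter, which it passed only through the drug arrays, so its log2 differences of 2.59 with nilotinib and 2.10 with imatinib are given as a description and add no support to the brighter probe set. The probe set that names both ID2 and ID2B was left out of the tests. It had means of 447 ± 70.0 with nilotinib, 270 ± 44.3 with imatinib and 39.9 ± 9.96 with DMSO (SD, n = 4 each), with no overlap between any 2 groups. Its DMSO mean also lies below the filter's signal, so its values too are given as a description. All 3 probe sets lay higher on every drug array than on any DMSO array, but only 201565_s_at had a DMSO mean above that signal.

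**Figure D1:**
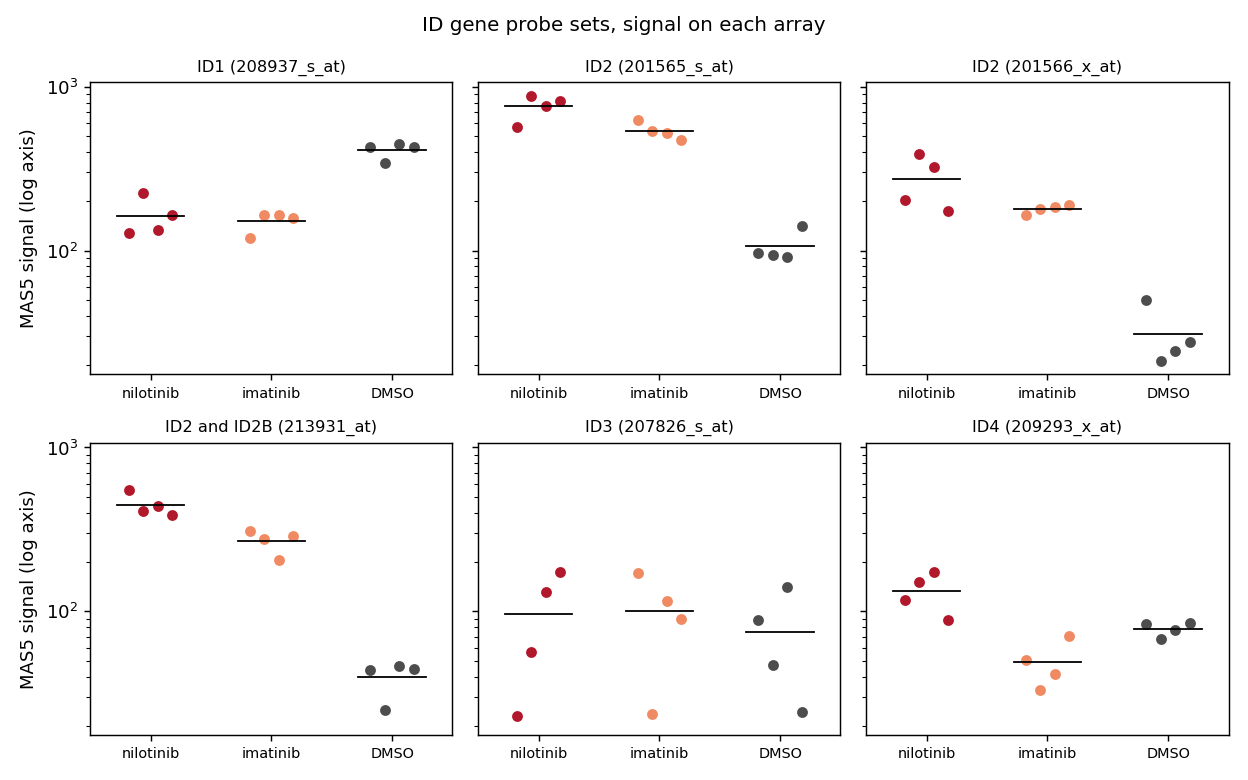
MAS5 signal of the ID gene probe sets on each array (log axis), by group, where points are arrays and lines are group means. The ID1 drug arrays (119.7 to 224) lie below the DMSO arrays (340.3 to 445), the ID2 drug arrays lie above them, and ID3 overlaps in all 3 groups.

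ID1 and ID2 held these calls under every alternative in which they were tested. ID1 ranged from −1.80 to −1.08 with nilotinib and from −1.58 to −1.14 with imatinib over the alternatives, and ID2 by its brighter probe set from 2.14 to 2.83 and from 1.82 to 2.34. Leaving out the drug arrays of high actin ratio gave −1.37 for ID1 and 2.74 for ID2 with nilotinib, and −1.26 and 2.09 with imatinib.

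ID3, which acts with ID1 in vessel and lymphocyte development, was below the filter. Its signals were 22.8, 56.6, 131 and 173 with nilotinib and 170.3, 23.6, 116 and 89.9 with imatinib, against 89.1, 46.8, 141 and 24.4 with DMSO. The spread within each group was as wide as that between groups, and no difference was detectable at this signal. ID4, known from neural and germ cells, was read by 3 probe sets below the filter. The brightest, 209293_x_at, gave 117, 150.1, 175 and 89.0 with nilotinib and 50.2, 33.0, 41.6 and 70.6 with imatinib, against 83.8, 67.5, 76.6 and 84.4 with DMSO. Its nilotinib arrays lay above all the others, and without the filter it was called higher against imatinib (1.19, adjusted p = 0.0370) but not against DMSO (0.63, adjusted p = 0.122). The other ID4 probe sets, 209291_at and 209292_at, had signals of 1.42 to 118 and 3.09 to 38.9 over the 12 arrays. Of these only 209291_at with nilotinib against DMSO was called without the filter, by 1.21 (adjusted p = 0.0384). Without the filter, nilotinib against DMSO called 5417 of 19064 probe sets higher and 2551 lower, with a median log2 fold change of 0.34. Between the drugs 512 were called higher and 650 lower, with a median of 0.15.

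TCF4 was higher with both drugs on all 7 of its probe sets. TCF4 encodes the E protein E2-2, known for its role in plasmacytoid dendritic cells and in neurons. Its brightest probe set, 212386_at, gave 5696, 5451, 5279 and 5289.7 with nilotinib and 5009.8, 4132, 3945 and 3869 with imatinib, against 2196, 2323, 2054 and 2293 with DMSO. No array of one group fell inside the range of another. The mean was 5429 ± 195 with nilotinib and 4239 ± 526 with imatinib, against 2216 ± 121 with DMSO (SD, n = 4 each). The log2 fold change was 1.29 ± 0.08 with nilotinib (adjusted p = 1.76e-10) and 0.92 ± 0.08 with imatinib (adjusted p = 3.02e-08).

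The other TCF4 probe sets covered a narrow band of changes. Over all 7 the log2 fold change ran from 1.05 to 1.68 with nilotinib, with a median of 1.29, and from 0.92 to 1.23 with imatinib, with a median of 1.00. The change with nilotinib was widest for 212387_at, which gave 1977, 1462, 2128 and 1815 with nilotinib and 1423, 1361, 1228 and 1255 with imatinib, against 651, 509, 602 and 496 with DMSO. It was narrowest for 212382_at, with 494, 639, 648 and 451 with nilotinib and 591, 514, 708 and 726 with imatinib, against 203, 309, 307 and 232 with DMSO. This was also the only TCF4 probe set whose mean was lower with nilotinib than with imatinib, at 558 ± 100 and 635 ± 100 (SD, n = 4 each), a difference that was not called (adjusted p = 0.488). Against DMSO all 7 were called with both drugs under every alternative in which they were tested, at 0.52 to 1.78 with nilotinib and 0.70 to 1.42 with imatinib. The 7 probe sets read the same RNA samples and are not replicates of each other.

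**Figure D2:**
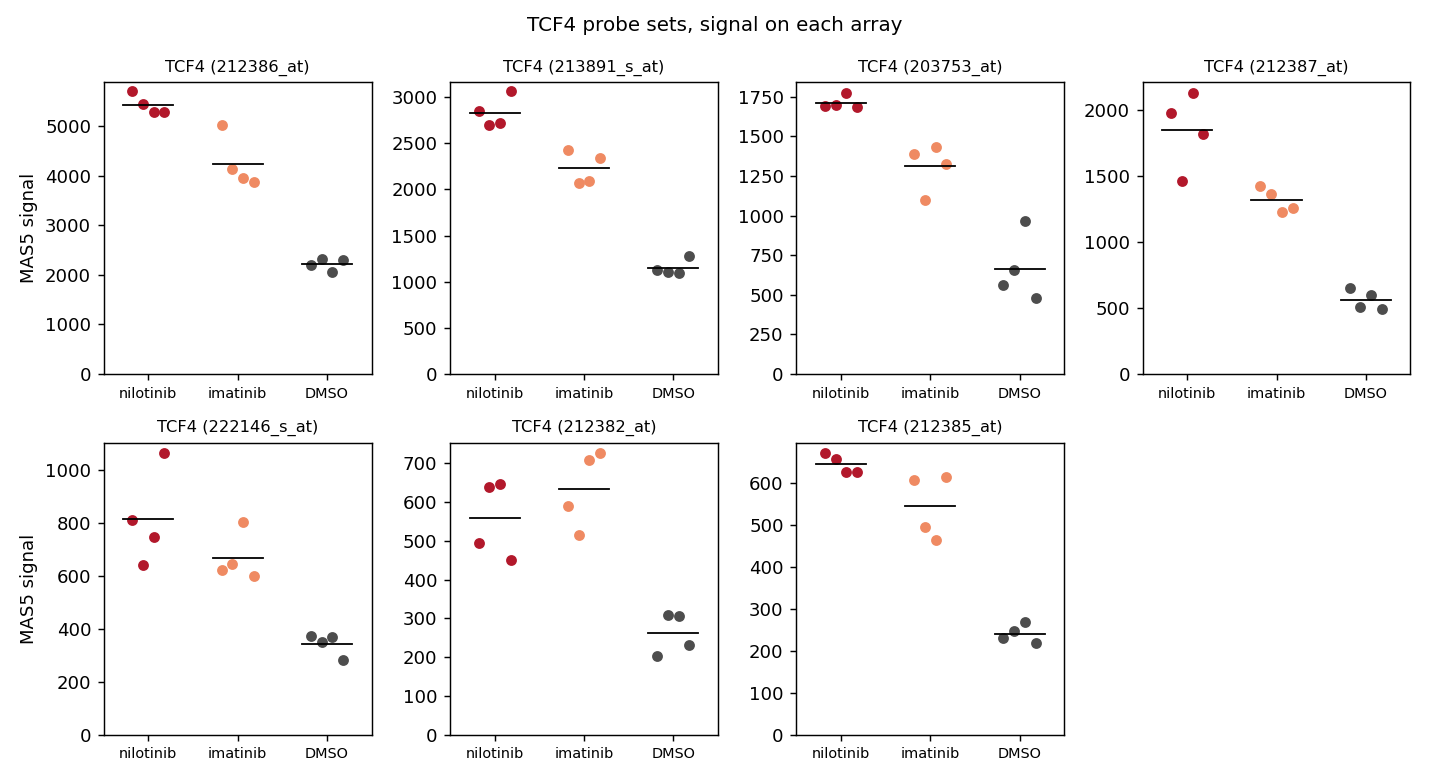
MAS5 signal of the 7 TCF4 probe sets on each array (linear axis from 0), by group, where points are arrays and lines are group means. In each panel the nilotinib and imatinib arrays lie above the DMSO arrays. The 3 groups are separate for 212386_at, 213891_s_at, 203753_at, 212387_at and 212385_at.

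TCF3, whose E12 and E47 proteins are needed for B cell development, gave no single picture over its 9 tested probe sets. Nilotinib against DMSO called 3 of them higher and imatinib against DMSO called 3 others higher, with 0 called lower by either. The probe set with the highest mean, 213811_x_at, gave 1196, 1483, 1251 and 1154 with nilotinib and 1193, 1414, 1321 and 1268 with imatinib, against 978, 1177, 1005 and 1163 with DMSO. Its log2 fold change was 0.23 with nilotinib (adjusted p = 0.0533) and 0.26 ± 0.10 with imatinib (adjusted p = 0.0409). Next, 210776_x_at averaged 1204 ± 50.5 with nilotinib and 1095 ± 62.7 with imatinib, against 926 ± 150 with DMSO (SD, n = 4 each), or by 0.39 ± 0.10 on the log2 scale with nilotinib (adjusted p = 0.00439) and 0.25 with imatinib (adjusted p = 0.0697). With median centring that nilotinib value was −0.14.

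The other imatinib calls of TCF3 were 209153_s_at, at 0.38 ± 0.13 with overlapping arrays (adjusted p = 0.0254), and 215260_s_at, at 0.90 ± 0.33 (adjusted p = 0.0433). All 3 imatinib calls were lost on leaving out single arrays. That of 213811_x_at was lost without imatinib replicate 6, 7 or 8 or DMSO replicate 9 or 11, at 0.22 to 0.27, and that of 209153_s_at without imatinib replicate 6 or 7 or DMSO replicate 12, at 0.29 to 0.36. That of 215260_s_at was lost without any 1 imatinib array or DMSO replicate 9, 10 or 11, at 0.62 to 0.97, and with quantile normalization (0.66, adjusted p = 0.181). In the other direction, 213811_x_at was called with nilotinib without nilotinib replicate 1 or 4 or DMSO replicate 10 or 12, at 0.26 to 0.27, 209153_s_at with nilotinib without its replicate 2 (0.36), and 210776_x_at with imatinib without DMSO replicate 11 or 12 (0.31 and 0.32). 209152_s_at was not called, at 436 ± 79.2 with nilotinib and 439 ± 56.8 with imatinib, against 425 ± 69.9 with DMSO (SD, n = 4 each). 213730_x_at was not called either, at 781 ± 232 with nilotinib and 931 ± 111 with imatinib, against 834 ± 105 with DMSO (SD, n = 4 each).

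Of the 4 TCF3 probe sets below the filter, 213731_s_at gave 85.1, 69.3, 30.0 and 45.7 with nilotinib and 12.0, 20.4, 33.0 and 18.8 with imatinib, against 17.2, 16, 10.8 and 16.7 with DMSO. Its nilotinib arrays lay above all DMSO arrays, and without the filter it was called higher with nilotinib, by 1.18 (adjusted p = 0.00618), and not with imatinib (0.22, adjusted p = 0.687). That fit called 5417 of 19064 probe sets higher with nilotinib, at a median log2 fold change of 0.34. The part of array background in this dim probe set was not tested. The other 3 TCF3 probe sets below the filter overlapped between groups and were called in no comparison. 213809_x_at spanned 66.7 to 154 with nilotinib and 27.4 to 118 with imatinib, against 27.0 to 107 with DMSO. 213732_at spanned 28.2 to 103 with nilotinib and 18 to 85.7 with imatinib, against 10.1 to 38.2 with DMSO. 209151_x_at spanned 14.9 to 96.7 with nilotinib and 7.05 to 88.4 with imatinib, against 3.91 to 60.2 with DMSO.

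A pair of dimmer TCF3 probe sets set nilotinib apart from both other groups. 216647_at gave 311, 361, 373 and 447 with nilotinib and 198, 219, 178 and 173 with imatinib, against 148, 184, 170.3 and 137 with DMSO. 216645_at gave 269.5, 375, 351 and 491 with nilotinib and 238, 227, 166 and 50.1 with imatinib, against 164, 118, 98.9 and 125 with DMSO. On both, every nilotinib array lay above every imatinib and DMSO array. The log2 fold changes against DMSO were 1.14 ± 0.17 (adjusted p = 2.66e-05) and 1.43 ± 0.33 (adjusted p = 0.00153) with nilotinib, and 0.24 (adjusted p = 0.296) and 0.23 (adjusted p = 0.632) with imatinib, where 216645_at was called without imatinib replicate 8 (0.67, adjusted p = 0.0355). The bacterial control probe sets were also brightest on the nilotinib arrays, as given above, and their part in this difference was not tested. The nilotinib signals of 202648_at were 187 and 143 on the arrays of high actin ratio and 32.3 and 41.1 on the others. Its imatinib signals were 151 and 172 on the arrays of high actin ratio and 131 and 145 on the others, a narrower split, and its DMSO signals were 82.7 to 128. All imatinib arrays lay above all DMSO arrays, and the difference of 0.40 was not called (adjusted p = 0.451). When those high-ratio arrays were left out it was called lower with nilotinib, at −1.25 (adjusted p = 0.00669), and with only those drug arrays the value was 0.53 (adjusted p = 0.139).

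TCF12 and LYL1 did not pass the test with either drug. TCF12 encodes HEB, an E protein known in thymocytes and muscle. On 208986_at it gave 1863, 1879, 1797 and 1872 with nilotinib and 1859, 1704, 1654 and 1649 with imatinib, against 1860.4, 1595, 1659.6 and 1707 with DMSO. The groups overlapped. Its dimmer probe set 215611_at was below the filter, overlapped between groups and was not called without the filter, at 31.6 to 114 with nilotinib and 14.6 to 124 with imatinib, against 10.7 to 54.5 with DMSO. On 208986_at the log2 difference from DMSO was 0.12 with nilotinib (95% interval −0.03 to 0.27, adjusted p = 0.165) and 0.01 with imatinib (−0.14 to 0.16, adjusted p = 0.933). LYL1, a relative of TAL1 that also pairs with E proteins, gave 3212, 3355, 2823 and 3001 with nilotinib and 3034, 2692, 2785 and 2901 with imatinib, against 2772, 2949, 2600.2 and 2774 with DMSO. Its log2 difference was 0.16 with nilotinib (95% interval 0.01 to 0.31, adjusted p = 0.0700) and 0.04 with imatinib (−0.11 to 0.19, adjusted p = 0.700). Without nilotinib replicate 3 the nilotinib difference was called, at 0.20 (adjusted p = 0.0317).

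The nilotinib direction of both genes rested on the scaling. Quantile normalization called LYL1 higher, at 0.34 (adjusted p = 0.000758), and TCF12 higher, at 0.24 (adjusted p = 0.0102). Median centring called them lower, at −0.37 (adjusted p = 0.0013) and −0.40 (adjusted p = 0.00118).

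**Figure D3:**
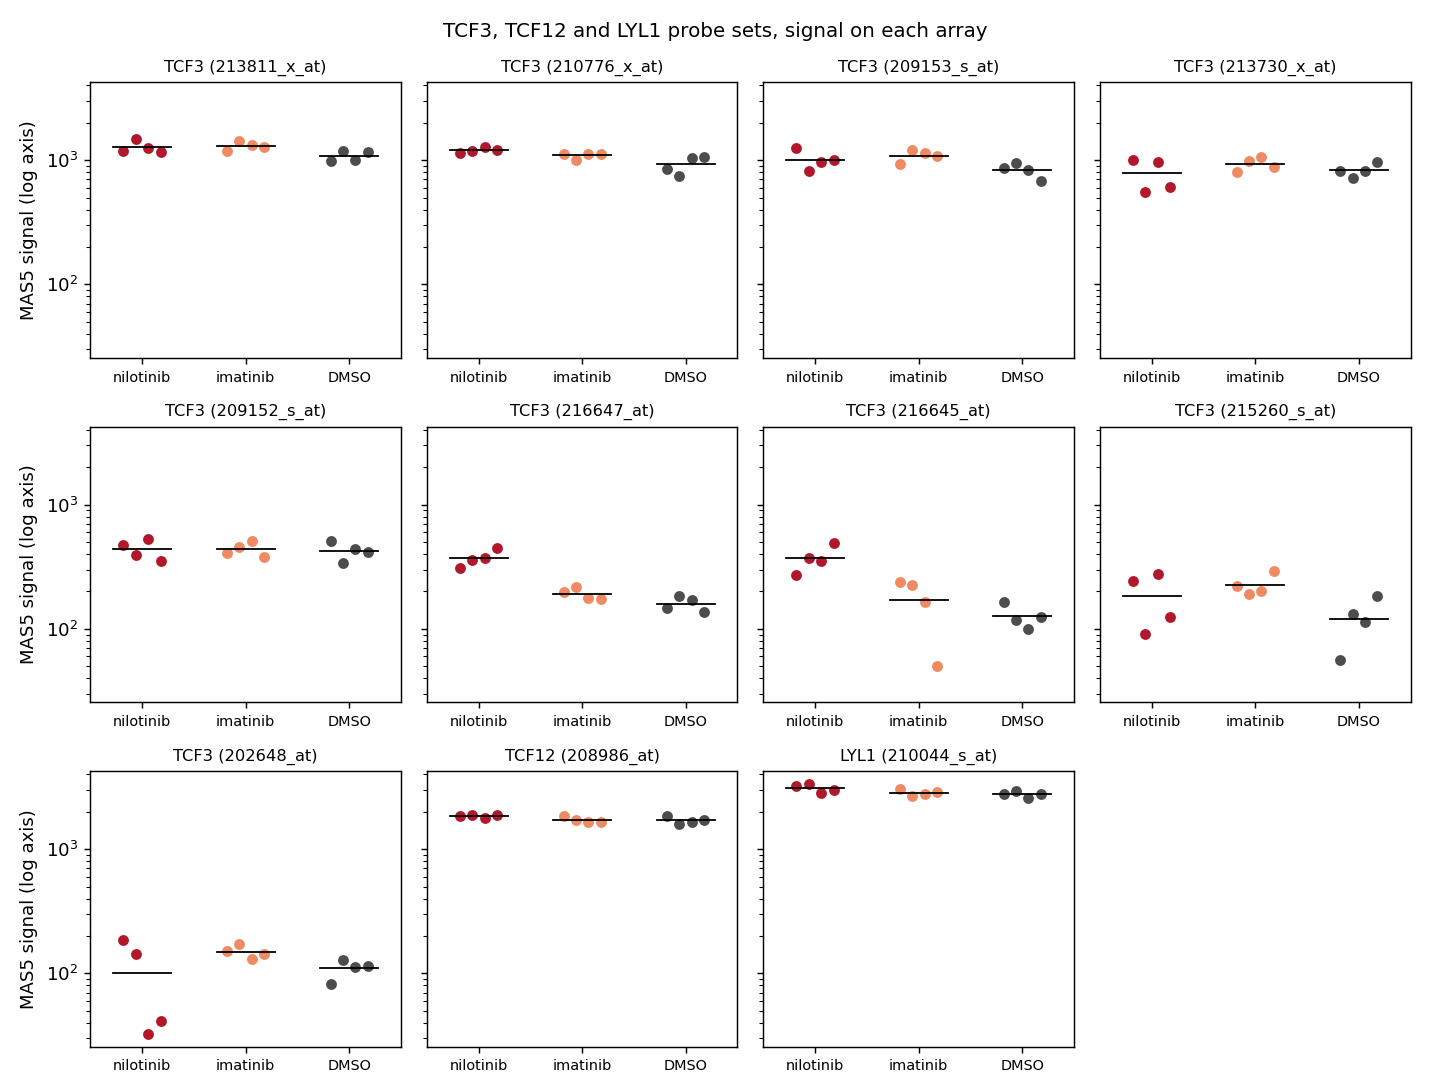
MAS5 signal of TCF3, TCF12 and LYL1 probe sets on each array (log axis), by group, where points are arrays and lines are group means. On 216647_at and 216645_at the nilotinib arrays lie above the others, while TCF12 and LYL1 overlap between groups.

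Nilotinib at 0.05 µM and imatinib at 0.5 µM were also set against each other. Of the 21 member probe sets, 5 were called higher with nilotinib and 0 lower, against 4.77% called higher and 6.66% lower over all probe sets. The arrays of the drugs did not overlap for 8 of the 21, against 16.6% of all probe sets, of which 9.03% lay higher and 7.59% lower with nilotinib. The 5 were 3 of TCF4 and the TCF3 pair 216647_at and 216645_at. TCF4 differed by 0.36 ± 0.08 on 212386_at (adjusted p = 0.00672), 0.47 ± 0.12 on 212387_at (adjusted p = 0.0145) and 0.34 ± 0.08 on 213891_s_at (adjusted p = 0.0111). TCF3 differed by 0.90 ± 0.17 on 216647_at (adjusted p = 0.00355) and by 1.20 ± 0.33 on 216645_at (adjusted p = 0.0280). The 216645_at call was lost without nilotinib replicate 2 (1.19) or 4 (1.06) or imatinib replicate 8 (0.76). The other 7 TCF3 and 4 TCF4 probe sets tested were not called. Over all tested probe sets of the gene, the median difference was −0.04 for TCF3 and 0.34 for TCF4. The TCF4 calls were lost with median centring, at 0.07, 0.17 and 0.04 in the same order. With only the drug arrays of high actin ratio 0 of the 5 were called, with TCF4 at 0.29, 0.29 and 0.30 and TCF3 at 0.65 and 0.43. The doses differ, so these values do not compare the compounds at matched exposure.

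**Figure D4:**
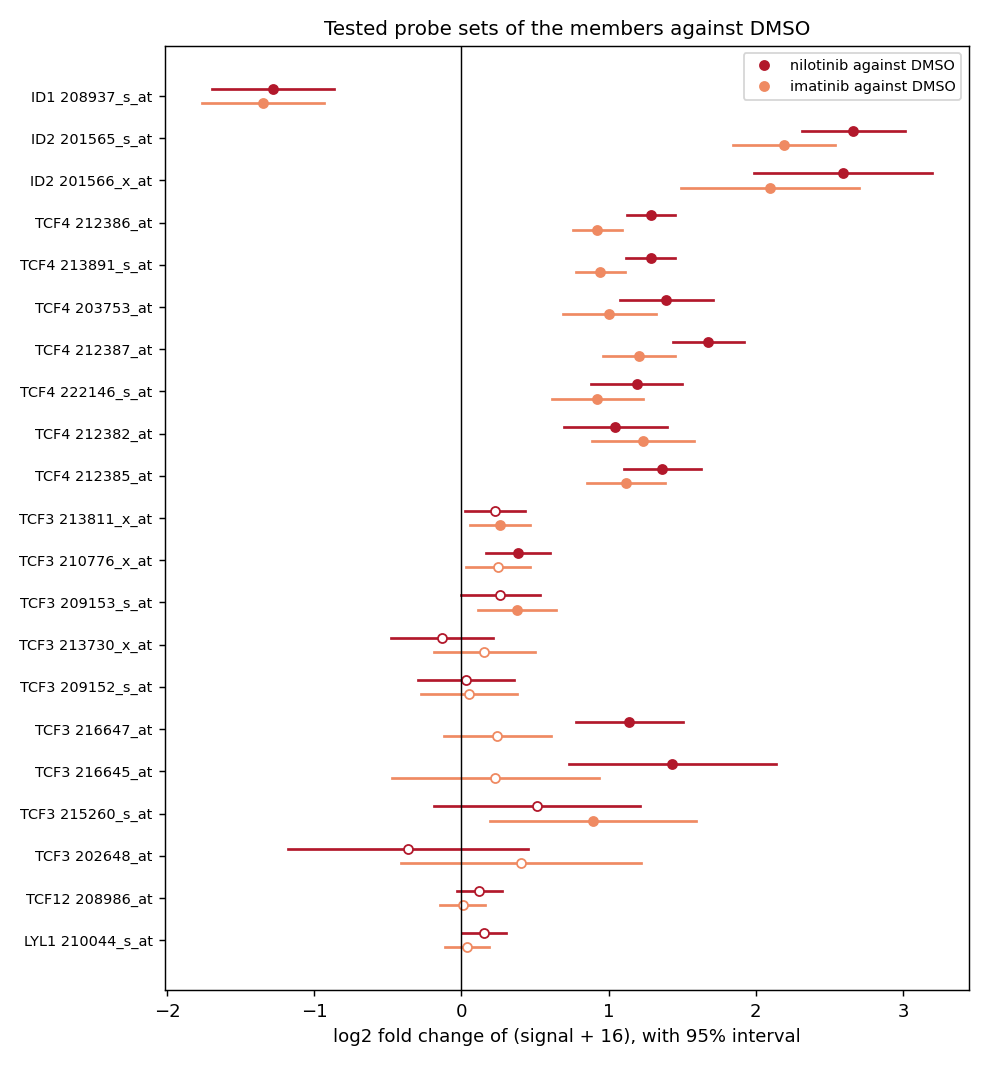
Log2 fold change, on the log2(signal + 16) scale, of the 21 tested member probe sets with each drug against DMSO, with bars for the 95% interval and filled points for calls. ID1 lies at −1.28 and −1.35 against DMSO, the ID2 and TCF4 probe sets lie above 0.9 with both drugs, and TCF12 and LYL1 lie near 0.

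Partners and regulators were described from lists of genes. Each list count below is to be read beside the shares over all probe sets tested. With nilotinib against DMSO these were 33.1% called higher and 21.8% lower, and with imatinib 20% and 15.6%. The lists count each gene by 1 probe set, whereas these shares count every probe set. In the fit with 1 probe set per gene, 2781 of 8021 genes were called higher and 1885 lower with nilotinib. With imatinib that fit called 1767 higher and 1390 lower. Of 4 tested bHLH partners of E proteins, TAL1 was called higher and TWIST1 lower with both drugs. TAL1, the erythroid partner of E proteins, averaged 2849 ± 103 with nilotinib and 2112 ± 106 with imatinib, against 891 ± 52.9 with DMSO (SD, n = 4 each). Its log2 fold change was 1.66 ± 0.07 with nilotinib and 1.23 ± 0.07 with imatinib, and the drugs differed by 0.43 (adjusted p = 0.00118). LMO2, the adaptor that joins TAL1 to LDB1, averaged 6648 ± 471 with nilotinib and 6000.3 ± 499.9 with imatinib, against 2666 ± 277 with DMSO. GATA1 and LDB1, the other members of that complex, were not called, at 0.22 (adjusted p = 0.242) and −0.09 (adjusted p = 0.609) with nilotinib. Of 17 tested proteins found in complexes with E proteins or TAL1, 7 were called higher and 5 lower with nilotinib (median 0.22), and 3 and 4 with imatinib (median 0.07). SSBP2 and SSBP3, related proteins that bind LDB1, moved in opposite directions with nilotinib, at −1.28 ± 0.14 and 1.11 ± 0.14, and with imatinib, at −1.04 ± 0.14 and 0.78 ± 0.14. The corepressor RCOR1 was lower, at −0.85 ± 0.09 and −0.88 ± 0.09.

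Of 21 tested genes of BMP and TGF-beta signalling, the pathway best known for switching on ID1, 7 were called higher and 3 lower with nilotinib (median 0.40), and 5 and 4 with imatinib (median 0.27). Over all probe sets tested, 33.1% were called higher and 21.8% lower with nilotinib, and 20% and 15.6% with imatinib. The list was thus called about as often as the array. Of the list genes called higher, 2 with nilotinib (BMP7 and BMPR2) and 1 with imatinib (BMP7) had a DMSO mean below the filter and passed it through the drug arrays, so those calls are no support. The ligand BMP7 averaged 200.3 ± 90.5 with nilotinib and 138 ± 46.9 with imatinib, against 29.8 ± 17.8 with DMSO (SD, n = 4 each). The inhibitory SMAD6 was higher by 1.17 ± 0.13 with nilotinib and 0.60 ± 0.13 with imatinib. SMAD1 was lower, at −0.65 ± 0.16 with imatinib and −0.56 ± 0.16 with nilotinib, where its arrays overlapped those of DMSO. SKIL was higher by 0.68 ± 0.23 with imatinib and was not called with nilotinib (0.50, adjusted p = 0.0673). The ubiquitin ligase SMURF2 was lower, at −0.85 ± 0.12 with nilotinib and −0.55 ± 0.12 with imatinib.

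Of 9 tested other regulators described for ID genes, 2 were called higher and 4 lower with nilotinib (median −0.25), and 1 and 5 with imatinib (median −0.38). The immediate early factor EGR1 averaged 269.6 ± 21.1 with nilotinib and 201 ± 47.6 with imatinib, against 2904 ± 135 with DMSO (SD, n = 4 each). CEBPB differed by −2.05 ± 0.10 with nilotinib and −1.71 ± 0.10 with imatinib, and MYC by −1.91 ± 0.10 and −1.25 ± 0.10. ATF3 was also lower, at −0.95 ± 0.19 with nilotinib and −1.68 ± 0.19 with imatinib. Among 7 genes for turnover of ID proteins, 4 were called lower and 1 higher with nilotinib, and 2 and 1 with imatinib. SMURF2, called lower with both drugs, is on this list and on that of BMP and TGF-beta signalling, so it is counted in both. USP1, a deubiquitinase that stabilises ID proteins, differed by −0.71 ± 0.08 with nilotinib and −0.35 ± 0.08 with imatinib, while WDR48, the partner that activates USP1, differed by 0.56 ± 0.12 and 0.37 ± 0.12. Protein levels were not measured.

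Of 3 tested HES, HEY and BHLHE repressors, which bind DNA through the same fold, 2 were called lower with each drug. BHLHE40 averaged 1242 ± 89.5 with nilotinib and 1685 ± 91.3 with imatinib, against 5287 ± 292 with DMSO (SD, n = 4 each), and HES1 differed by −0.89 ± 0.16 and −1.09 ± 0.16. Of 6 tested genes described as E protein targets, 2 were called higher and 1 lower with nilotinib (median 0.10), and 0 higher and 2 lower with imatinib (median −0.02). These were the probe set annotated to CDKN2A, at 1.11 ± 0.27, and PTCRA, at 0.65 ± 0.20, higher with nilotinib, and NOTCH1, lower at −1.11 ± 0.33 with nilotinib and −1.03 ± 0.33 with imatinib. The other gene called lower with imatinib was the cell cycle inhibitor CDKN1A, at −0.95 ± 0.32 with overlapping arrays. With nilotinib it was not called against DMSO (0.15, adjusted p = 0.710), and it was called higher with nilotinib than with imatinib, by 1.10 ± 0.32 (adjusted p = 0.0343) with no overlap. CDKN1A is outside the rule for named genes and was named after its value was seen. K562 cells are known to lack CDKN2A, so the call of its probe set is not read as a change of that gene. The probe set gave 301 ± 96.2 with nilotinib and 176 ± 71.8 with imatinib, against 128 ± 21.4 with DMSO (SD, n = 4 each). What it detected was not tested.

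Markers of blood lineages were read beside the members. Over all probe sets tested, 33.1% were called higher and 21.8% lower with nilotinib, and 20% and 15.6% with imatinib. Of 11 tested erythroid markers of K562, 10 were called higher with each drug, with medians of 1.24 and 1.18, and their summed signal was 89296 to 100395 with nilotinib and 76841 to 86344 with imatinib, against 41031 to 46463 with DMSO. TAL1 is on this list as well. Of 14 lymphocyte markers 13 had a probe set and 6 passed the filter, with 3 called higher with nilotinib, and 1 higher and 1 lower with imatinib, and a summed signal of 1205 to 1875 with nilotinib and 796 to 1014 with imatinib, against 779 to 979.7 with DMSO. Of 14 granulocyte and monocyte markers 4 passed, 3 called higher and 1 lower with nilotinib and 1 each way with imatinib, with sums of 3499.8 to 4598, 3342 to 4064 and 3928 to 4402 in the same groups. Of 10 megakaryocyte markers 3 passed, with 2 called higher with nilotinib and 0 with imatinib. The sums of that list were 682 to 1144, 517 to 739 and 399 to 684 in the same groups. Each sum takes the brightest probe set of every list gene that has one, whether or not it passed the filter. In the lymphocyte, granulocyte and monocyte, and megakaryocyte lists these were 13, 13 and 8 genes. Of the nilotinib calls higher in the last 3 lists, CD79B, CD2, CSF3R, CEBPE and ITGB3 had DMSO means below the filter, as did CSF3R with imatinib, and passed it through the drug arrays, so those calls are no support for a change of these lists. The part of these markers in the changes of ID1, ID2 and TCF4 was not tested. In RNA from a whole culture, a change in the share of cells holding a transcript and a change in its amount per cell cannot be told apart.

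Genes whose pattern over the 12 arrays lay nearest to each called member were found by the root mean square difference of log2 values centred on the DMSO mean, over 8020 genes, as a description. For TCF4 on 212386_at they were CPOX, a heme synthesis enzyme, at 0.0794, PNISR at 0.0930, and XK, a red cell membrane protein, at 0.0972. For ID1 they were SERPINB9 at 0.156, SHMT2, a mitochondrial serine enzyme, at 0.167, and SEL1L3 at 0.172. For ID2 on 201565_s_at they were the transporter SLC22A4 at 0.222, the collagen COL18A1 at 0.264 and PODXL, a surface sialomucin, at 0.266. For TCF3 on 213811_x_at they were ACOT13 at 0.0799, DLST at 0.0859 and EIF3F at 0.0968. These distances are not compared between members.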

How the data were processed

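RNA from K562 cells was measured on 12 Affymetrix U133 A 2.0 arrays, which were grouped by their titles. Each array's intensity per probe set was computed by the authors with MAS5, as the submitters' processing notes name it. Its version is not given in the sources used here. Trimmed by 2%, the mean of an array was 500.1 to 500.2, so all lay within 10% of each other. The signals were used as deposited, on their linear scale. One factor per array sets this scale, so background differences remain in dim probe sets. The number of arrays limits the precision. No 2 arrays held identical values.

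A linear model of log2(signal + 16) was fitted in limma 3.58.1 (R 4.3.3), with a mean for each of the 3 groups, a variance trend and 9 residual degrees of freedom. Benjamini-Hochberg adjustment ran within each of the 3 comparisons over 11696 probe sets. Of 22277 probe sets, 62 controls, 1043 that name several genes and 2108 that name none stayed out of the tests, as did those below the 40th percentile. Symbols came from the platform annotation, updated by gene identifier for 19052 probe sets. The fit was tested on simulated data. Promoter windows came from RefSeq (GRCh38.p14). Figures were drawn with matplotlib 3.10.9 (Python 3.11.15).

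The members and lists were chosen with earlier results of these data known. The text names all member probe sets, up to 3 called genes per list and comparison with the largest change and no overlap, TAL1, LMO2, GATA1 and LDB1, and the 3 nearest genes of each called member. Alternatives were a pseudocount of 1 or 64, dropping the filter or raising it to the 60th percentile, quantile, median and cyclic loess scaling, 1 probe set per gene, a fit with no variance trend or with robust moderation, array weights, a fit of the compared groups alone, leaving out arrays with an actin ratio above 3.5, and each array left out in turn.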

Additional observations from a re-analysis of the deposited data

Results flagged for a closer look

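A gap test on log2 values (Dixon's, 4 arrays per group) marked 7 of 93 groups of member signals in which 1 array stood away from the other 3, where chance marks about 1 in 20. For ID1, imatinib replicate 5 had 119.7, below the other imatinib arrays at 159 to 165, and DMSO replicate 10 had 340.3, below the others at 429.5 to 445. Both stayed on their own side of the gap between drug and DMSO arrays. For ID2 on 201565_s_at, DMSO replicate 12 had 142, above the others at 91.7 to 97.1, and still lay below every drug array. The probe set naming ID2 and ID2B had 25.0 on DMSO replicate 10, below 44.1 to 46.1 on the others. TCF4 on 203753_at had 1775 on nilotinib replicate 3, above 1684 to 1696 on the others. TCF3 on 210776_x_at had 1001 on imatinib replicate 6, below 1122 to 1130.0 on the others. TCF12 on 215611_at, which is below the filter, had 10.7 on DMSO replicate 9, below 45.8 to 54.5 on the others.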

How the results depend on the processing

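ID1, ID2 and TCF4 kept direction and call against DMSO under every alternative in which they were tested; ID1 was not tested at the 60th percentile. No paired analysis was possible because the array numbers in the titles are not shared between groups. Against DMSO, 1 probe set per gene gave 3 members higher with nilotinib and 3 with imatinib, the 60th percentile gave 0 lower with each, and for nilotinib median centring gave 6 lower and omission of the high actin arrays 2. Between the drugs, the count higher was 1 with 1 probe set per gene, 3 at the 60th percentile, 2 with median centring and 0 with only the drug arrays of high actin ratio (an alternative chosen after seeing the data), and the count lower was 5 with median centring and 1 without the high actin arrays. Leaving out single arrays gave 12 to 13 higher with nilotinib, 9 to 12 with imatinib and 4 to 6 between the drugs. With 1 probe set per gene and at the 60th percentile fewer member probe sets were tested, and the cause of the other changes was not tested.

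The following values changed sign. With median centring, nilotinib against DMSO gave −0.40 for TCF12, −0.37 for LYL1, and, for TCF3, −0.49 on 209152_s_at, −0.26 on 209153_s_at, −0.14 on 210776_x_at, −0.29 on 213811_x_at and −0.0086 on 215260_s_at. Imatinib against DMSO gave −0.22 for TCF12, −0.19 for LYL1, −0.18 for TCF3 209152_s_at and −0.069 for 213730_x_at. Nilotinib against imatinib gave −0.23 for ID1, −0.19 for TCF12, −0.18 for LYL1, −0.16 for TCF3 210776_x_at, −0.050 for TCF4 212385_at and −0.030 for 222146_s_at. TCF3 209152_s_at was −0.15 and −0.025 (nilotinib and imatinib against DMSO) with quantile normalization and −0.13 and −0.030 with cyclic loess, which also gave 0.026 for TCF3 213811_x_at between the drugs. ID1 between the drugs was −0.22 with quantile normalization, −0.13 with cyclic loess and −0.11 without the high actin arrays. That omission gave −0.043 for TCF12 and −0.36 for TCF3 216645_at with imatinib. With only the drug arrays of high actin ratio, TCF3 202648_at was 0.53 for nilotinib against DMSO and 0.024 between the drugs, TCF4 212382_at was 0.027 and TCF3 213811_x_at 0.036 between the drugs. Over single arrays left out, TCF3 209152_s_at ranged from −0.071 to 0.13 with nilotinib, −0.053 to 0.13 with imatinib and −0.11 to 0.079 between the drugs, TCF3 213730_x_at from −0.26 to 0.016 with nilotinib, TCF12 from −0.029 to 0.052 with imatinib, and between the drugs ID1 from −0.082 to 0.16 and TCF3 213811_x_at from −0.11 to 0.0084. None of these was called as reported except TCF3 210776_x_at with nilotinib.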
